A study of Zea mays with 4 samples.

Results

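The maize glutathione transferase genes gst13, GST38, gst2 and GST26 are described here across aerial material of the lines F98908 and Cm489, each hybridised to 2 Affymetrix maize arrays. They were taken by symbol or synonym from the platform's annotation, which gave 5 probe sets for these 4 of the 1108 genes that have a single platform symbol. GST38, gst2 and GST26 have 1 probe set each, and gst13 has 2. The genes were chosen with their values known, for a lower signal in F98908 or for a gap between the Cm489 arrays, so both of these are given as descriptions without a test.

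The study looked into cell wall diversity and digestibility among maize lines. Plants of both lines were sampled at 21 days with 7 leaves, after growth in potting compost under long days, and the labels name neither a treatment nor a part of the shoot beyond aerial. The F98908 arrays carry 1 extract label between them, whereas each Cm489 array has its own. Whether the 2 arrays of a line stem from separate plants is not stated, so a p-value covers only the spread among these arrays, which may be technical.

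Glutathione transferases join the tripeptide glutathione to reactive or foreign molecules, which are then moved into the vacuole. In maize they are best known for detoxifying herbicides, and some are induced by safeners, the compounds that protect the crop from a herbicide. The gene gst2 is also listed as GSTIV, the subunit of a safener-induced maize enzyme active on chloroacetanilide herbicides. The tables used here give the other 3 genes by number alone, so no substrate is named for them.

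Values are log2 GCRMA values, 1 per probe set and array. A level of log2 4 was used as the limit for dim signals, and 23 control probe sets without a target in the plant reached at most 2.45 to 2.50 on the 4 arrays. All 5 probe sets exceeded log2 4 on at least 2 arrays and were among the 11263 tested of 17621 (63.9%). The 2 F98908 arrays differed by a median of 0.13 log2 units over the tested probe sets and the 2 Cm489 arrays by 0.21, and the gap within the line passed 1 log2 unit for 221 (1.96%) and 532 (4.72%) of them. Of the leaf markers, mdh6, rbcS and the brightest probe set of pdk1 were tested and bright on all 4 arrays (rbcS, for the small subunit of Rubisco, between 11.53 and 12.28). The other pdk1 probe sets were dimmer, and the dimmest read 1.70 on every array. ME1 stayed under log2 4 on every array, and pep1 read 1.86 and 1.86 in F98908, against 5.44 and 1.91 in Cm489. Of 4 genes in the kernel storage list, o2 and glb1 stayed under log2 4, and zp27 lay between 4.42 and 5.02 on its brightest probe set. GLB1, which shares the symbol of glb1 in other case, lay between 7.30 and 8.94. It is a separate gene, also listed as Hb and Hbm, that entered the list by symbol alone, so it is not read as a storage gene.

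The 2 probe sets of gst13 disagreed on the difference between the lines. On its x_at probe set the F98908 arrays read 2.74 and 2.73, against 11.70 and 11.23 on the Cm489 arrays. Both F98908 values lay near those of the control probe sets without a target, and both Cm489 values were bright, so the lines did not overlap. The means were 2.73 ± 0.01 in F98908 and 11.46 ± 0.33 in Cm489 (log2, SD, n = 2 arrays per line), a difference of -8.73, or at least 177-fold lower in F98908 against the limit of log2 4.

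On its plain at probe set the same gene read 9.78 and 9.99 in F98908, against 10.15 and 9.84 in Cm489. These 4 values overlapped, with means of 9.89 ± 0.15 in F98908 and 10.00 ± 0.22 in Cm489 (log2, SD, n = 2 arrays per line) and a difference of -0.11. The line differences of the 2 probe sets were thus 8.62 log2 units apart. Among 114 genes with several tested probe sets the median of this spread was 0.21, gst13 had the widest, and 19 genes passed 1 log2 unit. Nearly all of the gst13 spread is the x_at line difference, for which the gene was chosen, so nothing is read from its rank. The ending x_at in the name marks a probe set whose probes can also match other sequences, and the probe sequences were not used here, so the transcript behind the gap cannot be named from these values. In RNA of aerial material, fewer cells of a type and less RNA per cell cannot be told apart.

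GST38 was dimmer in F98908 on its single probe set. It read 7.21 on both F98908 arrays, against 10.63 and 10.55 on the Cm489 arrays. The lines did not overlap and each line's arrays agreed within 0.08 log2 units. The difference was -3.38 ± 0.10 (log2, limma SE), or 10.4-fold lower in F98908. Unlike the x_at probe set of gst13, this one stayed above log2 4 in both lines.

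The gene gst2 was set apart by a wide gap between the Cm489 arrays. It read 7.39 and 6.11 in F98908, against 2.16 and 6.99 in Cm489. Cm489 array 1 was at the level of the control probe sets, while Cm489 array 2 lay between the F98908 arrays, so the lines overlapped. Cm489 array 1 was 4.83 log2 units below array 2 as measured, and at least 2.99 below it against the limit of log2 4. The means of 6.75 ± 0.91 in F98908 and 4.57 ± 3.41 in Cm489 (log2, SD, n = 2 arrays per line) differed by 2.18, but by -0.23 without Cm489 array 1, by 4.59 without Cm489 array 2, and by 1.26 with values under log2 4 set to 4. The gap between the F98908 arrays was not itself used in choosing the genes. It was 1.28 log2 units (2.43-fold), with array 1 the higher, and 109 tested probe sets (0.968%) had one as large. Gaps ran in opposite directions in the 2 lines for 65.3% of all tested probe sets. The F98908 gap is therefore not independent of the Cm489 gap for which gst2 was chosen, and nothing is read from its rank.

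GST26 was dim and uneven in the other direction. It read 4.76 and 4.36 in F98908, against 5.56 and 2.90 in Cm489. Here Cm489 array 1 was the highest of the 4 and Cm489 array 2 the only one under log2 4, a gap of 2.66 log2 units as measured and of at least 1.56 against log2 4. The means were 4.56 ± 0.28 in F98908 and 4.23 ± 1.88 in Cm489 (log2, SD, n = 2 arrays per line), a difference of 0.33. Leaving out Cm489 array 1 gave 1.66 and leaving out Cm489 array 2 gave -1.0, while setting values under log2 4 to 4 gave -0.22. The F98908 arrays differed by 0.40, a size that 13.9% of tested probe sets reached.

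**Figure D1:**
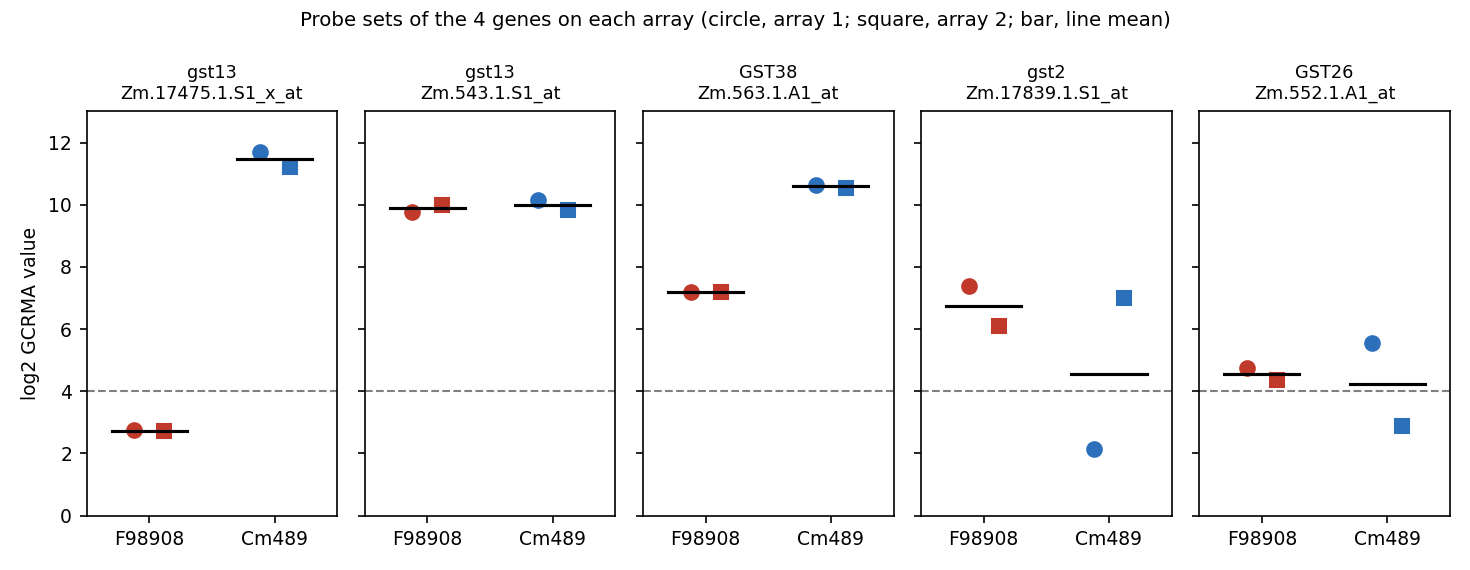
Log2 GCRMA value (vertical axis) of the 5 probe sets of gst13, GST38, gst2 and GST26 on the 2 arrays of F98908 (red) and of Cm489 (blue); circles are array 1, squares array 2, black bars the line mean, and the dashed line the limit of log2 4. The lines stand apart for gst13 on its x_at probe set (-8.73) and for GST38 (-3.38), while the Cm489 arrays stand apart for gst2 (2.16 and 6.99) and GST26 (5.56 and 2.90).

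By limma over all tested probe sets, 2 of the 5 probe sets were called lower in F98908, those of GST38 and of gst13 on its x_at probe set, and 8.02% of all tested probe sets were called in that direction. The same 2 had no overlap between the lines in that direction, as did 35.4% of all tested probe sets. Since the genes were chosen on this contrast, nothing is read from these counts.

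The order of the gaps differed within the family. Among 20 tested glutathione transferase probe sets (the 5 above and the brightest of each of 15 other genes), 6 had a gap over 1 log2 unit between the Cm489 arrays. Both gst2 and GST26 were chosen for it, and among the 15 other genes the count was 4, beside 4.72% of all tested probe sets. GST26 alone of these was brighter on Cm489 array 1. The other 5 were gst2, gst6, gst18, gst5 and gst19, dimmer on Cm489 array 1 and brighter on F98908 array 1. The gene gst6 read 7.95 and 7.52 in F98908 and 2.59 and 4.51 in Cm489. The gene gst18 read 7.11 and 6.50 in F98908 and 3.95 and 5.71 in Cm489. With values under log2 4 set to 4 the size of the Cm489 gap of gst6 was 0.51, which does not pass 1 log2 unit. By the same measure it was 1.71 for gst18, 1.29 for gst5 and 1.05 for gst19. Opposite gaps in the 2 lines were as frequent in the family, at 13 of 20 probe sets (65.0%), as over all tested probe sets (65.3%).

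**Figure D2:**
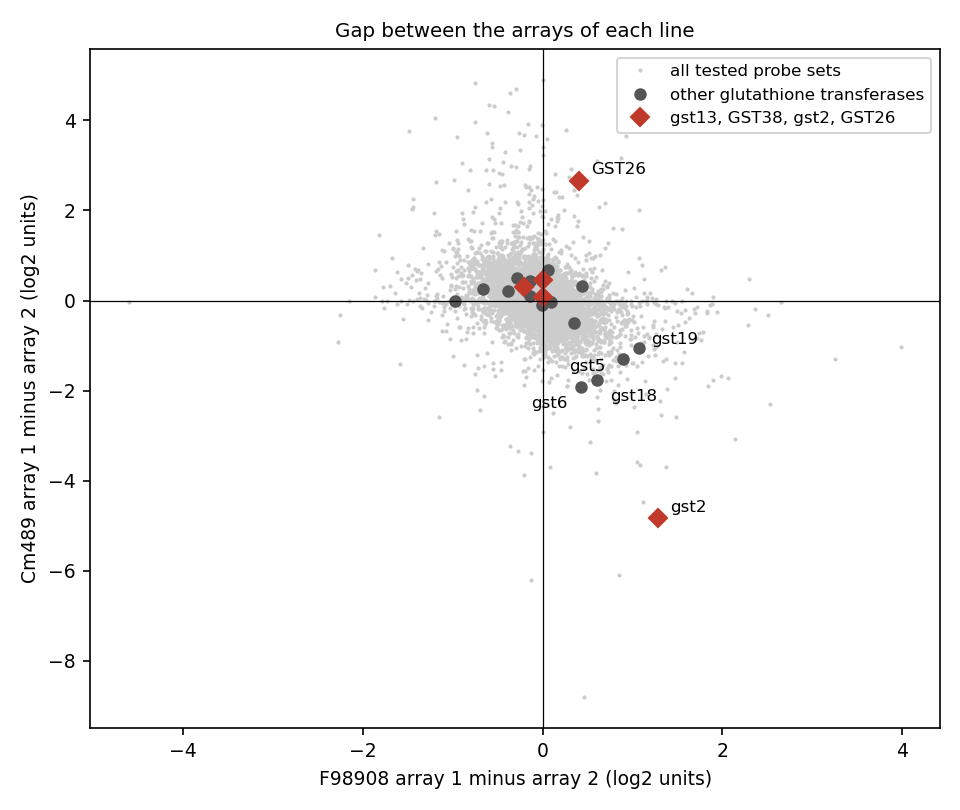
Array 1 minus array 2 in F98908 (horizontal axis) and in Cm489 (vertical axis), in log2 units, for all 11263 tested probe sets (grey), 15 other glutathione transferases (dark) and the 5 probe sets of the 4 genes (red). Genes with a Cm489 gap over 1 log2 unit are named, with gst2 at -4.83 and GST26 at 2.66 on the vertical axis.

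For the 4 probe sets whose arrays spanned at least 1 log2 unit, the nearest other named genes were sought by the Euclidean distance between values centred on their mean over the 4 arrays, among 737 genes. This is a description over 4 arrays. For gst13 on its x_at probe set the nearest was zrp4, an O-methyltransferase gene known from roots, at a distance of 0.82. It read 3.14 and 2.48 in F98908, against 10.99 and 10.78 in Cm489. As the single measured gene of the root list it had a linear signal of 5.59 to 8.78 in F98908 and 1754 to 2035 in Cm489, and its part in the gst13 values was not tested. The next were opr5, an oxophytodienoate reductase gene, at 3.92 and the ribosomal protein gene RPS21 at 4.22. On both F98908 arrays this gst13 probe set, zrp4 and opr5 (2.55 and 3.08) were under log2 4, so these distances are uncertain.

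The named genes nearest to GST38 were SE1A at a distance of 0.30, cpi2, a cystatin that inhibits cysteine proteinases, at 0.60 and the nitrilase gene NIT2 at 0.69. All 3 were dimmer on both F98908 arrays than on both Cm489 arrays, and cpi2 read 8.49 and 7.92 in F98908, against 11.24 and 11.78 in Cm489. SE1A (2.67 and 2.47) and NIT2 (3.94 and 3.28) were under log2 4 in F98908, where values have no reliable order, so their distances and their rank beside cpi2 are uncertain.

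The genes nearest to gst2 were, like it, lowest on Cm489 array 1. They were IIG1 at a distance of 1.33, cyclotide, named for a family of small cyclic peptides, at 1.57, and the beta-expansin gene expB6, of a family that loosens the wall, at 2.70. IIG1 read 6.12 and 6.33 in F98908, against 1.67 and 5.54 in Cm489. Unlike gst2, expB6 was lower on both Cm489 arrays (9.23 and 10.29) than on both F98908 arrays (12.02 and 11.24). On Cm489 array 1 gst2, IIG1 and cyclotide (3.60) were all under log2 4, so the distances to gst2 and their order are uncertain.

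The genes nearest to GST26 were low on Cm489 array 2. They were MNB1b, for an HMG-box DNA-binding protein, at 0.49, the homeodomain gene ocl3 of the outer cell layer at 0.78 and GRF12 at 0.95. MNB1b read 13.48 and 13.53 in F98908, against 14.09 and 11.89 in Cm489. GST26 itself was under log2 4 on Cm489 array 2, so the distances to it and their order are uncertain. Of 5 outer cell layer genes on the array 4 were tested, all 4 brighter on Cm489 array 1 (median gap 3.97), and ocl2 was under log2 4 on every array. Their summed linear signal ranged from 449 to 697 in F98908 and from 86.4 to 1215 in Cm489. Of 4 YABBY genes, which set leaf polarity, 3 were tested, all 3 brighter on Cm489 array 1 (median gap 2.25), with sums of 150 to 368 in F98908 and 62.9 to 371 in Cm489, and yab9 was under log2 4. With values under log2 4 set to 4 the Cm489 gaps were smaller for yab14 (0.26), yab10 (0.92) and ocl4 (2.76). That of yabby15 stayed at 2.63. The F98908 arrays of the tested outer cell layer and YABBY genes ran the other way from GST26, with all 7 dimmer on array 1. The part of these cell layers in the values of GST26 and gst2 was not tested.

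**Figure D3:**
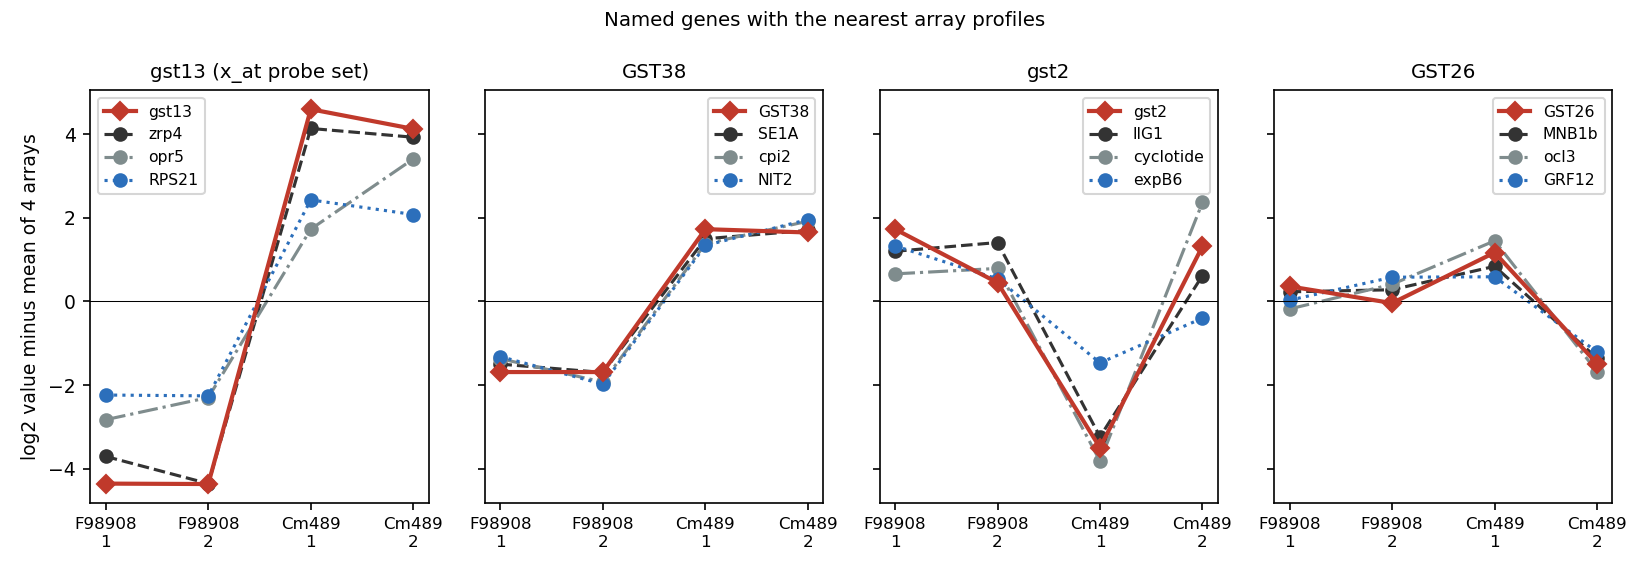
Log2 value minus the mean of the 4 arrays (vertical axis) on F98908 arrays 1 and 2 and Cm489 arrays 1 and 2, for gst13 (x_at probe set), GST38, gst2 and GST26 (red) and the 3 named genes nearest to each. The gst13 and GST38 panels step between the lines, whereas gst2 dips on Cm489 array 1 and GST26 on Cm489 array 2.

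In the gene order of RefSeq's Zm-B73-REFERENCE-NAM-5.0 table, used for neighbours alone, gst13 lies beside the related gene gst9 and GST38 lies among several relatives. No protein-coding gene separates gst13 from gst9. The next named relatives of gst13, GST25 and gst35, are 160 and 161 protein-coding genes away. The gene gst9 read 8.34 and 8.63 in F98908, against 9.88 and 9.38 in Cm489, a difference of -1.14 ± 0.23 (log2, limma SE) that did not pass (limma, adjusted p = 0.0535). It was called lower with an intensity trend in the prior variance and with array 1 of one line paired with array 2 of the other (the crossed replicate block, chosen after seeing the data), and its adjusted p ranged from 0.0287 to 0.261 over the alternatives. The gene was above log2 4 on all 4 arrays, unlike the dim gst13 probe set in F98908.

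GST38 lies in a row of glutathione transferase genes. GST39 and gst30 are its direct neighbours, and gst37, gst32 and gst42 follow with at most 6 protein-coding genes between. The probe sets of all 5 stayed at or under 2.88 on every array, so of this row only GST38 was above log2 4 in either line. For gst2 and GST26 no other gene with such a name was found on their chromosomes.

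Of 27 other glutathione transferase genes on the array 15 were bright enough to be tested, and by limma 6 rose in F98908, 0 fell and 9 did not pass, where 7.27% of all tested probe sets were called higher and 8.02% lower. At an unadjusted p under 0.05 the counts were 7 higher and 4 lower. Their median difference was -0.11, beside -0.03 over all tested probe sets. GST38 and gst13 stand outside these counts by choice. The 6 that rose were gst16, gst10, gst5, gst6, gst41 and gst1. The gene gst16 read 6.38 and 7.36 in F98908, against 2.29 and 2.30 in Cm489. It passed the filter only through the line where it is brighter, so its call could only be upward and nothing is read from it. The Cm489 mean of gst6, at 3.55, was also under log2 4. The gene gst10 rose by 3.84 ± 0.26 (log2, limma SE, adjusted p = 0.00495) and read 9.66 and 9.60 in F98908, against 6.13 and 5.46 in Cm489. The gene gst1, of the abundant maize enzyme GST I, rose by 0.53 ± 0.10 (limma, adjusted p = 0.0493). That p lay just under the threshold, and gst1 was not called with quantile normalization or with the replicate number as a block. With the F98908 arrays counted as 1 sample, or with either F98908 array left out, gst16 alone was called. Leaving out Cm489 array 1 left 3 calls, leaving out Cm489 array 2 left 2, and keeping dim probe sets left 3. Calls in the other direction appeared with an intensity trend in the prior variance, where gst9 fell (7 called), and with the crossed replicate block, where gst9, gst11, gst14 and gst19 fell (9 called).

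**Figure D4:**
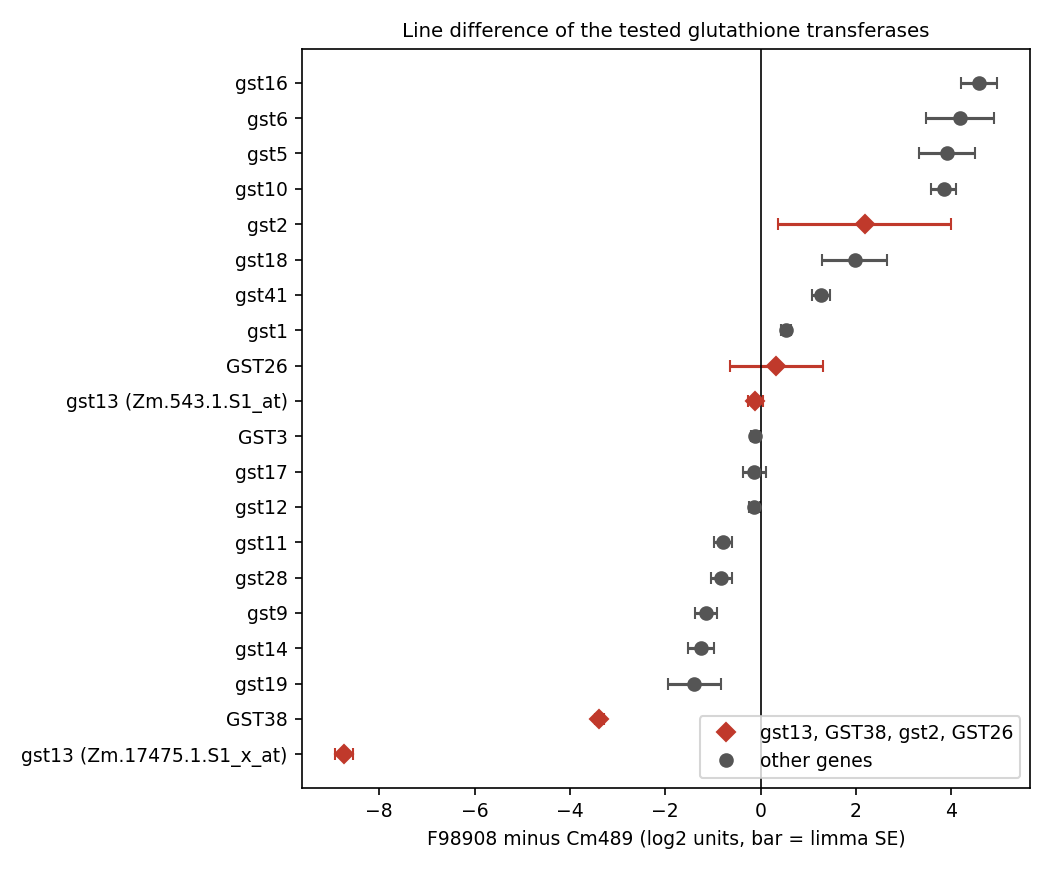
F98908 minus Cm489 in log2 units (horizontal axis, bars are the limma SE) for the 20 tested glutathione transferase probe sets, the 5 of gst13, GST38, gst2 and GST26 as red diamonds. The red points run from -8.73 for gst13 on its x_at probe set to 2.18 for gst2, whose bar is the widest (SE 1.82).

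Calls among genes that supply glutathione or work beside the transferases are given beside 15.3% of all tested probe sets, called in either direction. With lists this short nothing is read from the counts. Limma called 0 of 4 genes of glutathione synthesis and recycling, with 1 at an unadjusted p under 0.05. That was gsh1, for the first enzyme of glutathione synthesis, at -0.57 ± 0.14 (limma SE, adjusted p = 0.0762). Limma also called 0 of 2 tested conjugate transporter genes, with 0 at an unadjusted p under 0.05, the smaller p being that of MRP1 at -0.11 (adjusted p = 0.748). In the list of cytochromes P450 and glycosyltransferases only CYP88A1, an oxidase of gibberellin synthesis, was tested. It read 5.58 and 4.27 in F98908, against 4.29 and 6.53 in Cm489 (limma, adjusted p = 0.763, 0 at an unadjusted p under 0.05). The gaps of CYP88A1 ran the same way as those of gst2 in both lines. Gaps were opposite in the 2 lines for 65.3% of all tested probe sets, so nothing is read from this.

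Among 7 tested antioxidant enzyme genes 1 rose and 0 fell by limma, with 1 lower at an unadjusted p under 0.05. Over all tested probe sets 7.27% were called higher and 8.02% lower, so nothing is read from this count. The one that rose was PER42, a class III peroxidase of a family that acts largely in the cell wall, by 4.87 ± 0.44 (limma SE, adjusted p = 0.00969). It was not called without F98908 array 1, without either Cm489 array, or with dim probe sets kept (adjusted p = 0.0506 to 0.0544). The tested catalase and superoxide dismutase genes of the list did not pass, and cat2 was under log2 4 on every array and not tested. All 3 anthocyanin pathway genes on the array, c1, a2 and pl1, stayed under log2 4.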

How the data were processed

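Total RNA of 2 maize lines was measured on 4 arrays. The deposited log2 values are GCRMA output, according to the submitters' processing notes, and its version is not given in the sources used here. This method brings arrays to a common distribution, which removes any difference in total RNA output. Neither scanner files nor detection calls were used, and the number of arrays limits the precision.

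Of 17734 probe sets, 113 array controls were left out. Probe sets over log2 4 on at least 2 of 4 arrays were tested with limma 3.58.1 (R 4.3.3), whose lmFit and eBayes gave two-sided p-values for F98908 minus Cm489 without a replicate block. They were adjusted by Benjamini-Hochberg over all 11263 and called under 0.05; the variance prior contributed 1.79 degrees of freedom and the arrays 2. The fit was tested on simulated data. Groups and replicate numbers follow the labels, and no 2 arrays were copies of each other. A fold against a line mean under log2 4 is given against log2 4.

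Names came from the platform annotation, updated through gene numbers to RefSeq, where 1060 of 1108 genes matched; 16168 maize probe sets are unnamed here. Listed genes stand by their probe set with the highest mean. Every probe set of the 4 genes is named, with all called genes of a list (at most 6) or the one with the smallest p, and the 3 nearest profiles. The genes gst18 and gst19 were added after their values were seen, as were gst9, gst11, gst14, the genes in the row of GST38 and the leaf and kernel markers named. The genes and lists were chosen with earlier results of these data known. Alternatives covered filters, scaling, the prior, probe set types, pairing and arrays left out.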

Additional observations from a re-analysis of the deposited data

How the results depend on the processing

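The count of 1722 called probe sets (819 higher and 903 lower in F98908) was 1130 (505 higher) with a mean over log2 6, 418 (248 and 170) with the F98908 arrays as 1 sample and 780 (409 and 371) with the replicate number as a block. With 1 array left out it ranged from 433 to 1079 (257 to 543 higher and 176 to 536 lower). Same-numbered arrays deviated in opposite directions (correlation -0.365 over the tested probe sets), so the numbers were not taken as pairs, and the crossed pairing, chosen after seeing the data, gave 889 higher and 973 lower. With the block 2 of the 5 probe sets were called, those of GST38 and of gst13 on its x_at probe set, and 2 of the 6 other glutathione transferases. Leaving out cross-hybridising types, which removes that gst13 probe set, left 1 of the 2. Both were chosen on this contrast, so nothing is read from these counts. With 1 array left out the line difference ran from -8.96 to -8.50 for gst13 on that probe set, from -0.26 to 0.05 on the other, from -3.42 to -3.34 for GST38, from -0.23 to 4.59 for gst2 and from -1.0 to 1.66 for GST26. With values under log2 4 set to 4 it was -7.46 for gst13, 1.26 for gst2 and -0.22 for GST26, and quantile normalization gave -3.33 for GST38. A mean over log2 6 left out gst2 and GST26, so it gave no value for them. Beyond the limits that follow from leaving out probe sets or arrays, the cause of these shifts was not tested. Dim signals limit gst13 in F98908 and gst2 and GST26 in Cm489, where values under log2 4 have no reliable order.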
